A study of Homo sapiens with 12 samples.

Results

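This comparison asks which RNA elements gain editing when a PUM2 fusion is expressed at the lower of the amounts in the study. It sets the 3 libraries of the fusion hsPUM2-ADARcdMUT at 25 ng against the 3 libraries of the same fusion without induction, 6 of the 12 libraries in all. The members were taken by title from the labels. All libraries come from HEK293T, a human embryonic kidney line of genotype WT, carrying a recorder mRNA library, and expression of the fusion was induced with doxycycline, per the series description, which names biological replicates. The 3 libraries of the fusion at 250 ng and the 3 of ADARcdMUT without PUM2, labelled 1000 ng, entered the same fits, which share 1 estimate of the spread, and are set beside a few of the results. The labels do not say what substance the amounts refer to, and the sources used here do not give the promoter, how the fusion was delivered or whether the cells were 1 clone. Amplicons of the recorder alone were read, so neither the level of the fusion nor markers of the cell line were measured. The extraction text in the labels speaks of zebrafish embryos, against the cell line, source and organism fields.

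PUM2 is a Pumilio protein, a family that binds the 3′ UTRs of mRNAs and lowers their stability and translation. Its RNA-binding domain is built of repeats that each contact 1 base, and its preferred site, the Pumilio response element, is an 8-base run that opens with TGTA, takes any base at position 5 and closes with ATA. ADAR enzymes turn adenosine in RNA into inosine, which sequencing reads as guanosine, so a fused deaminase leaves edits on RNAs that the binding domain holds.

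Each recorder read carries 1 element and 7 recorder adenosines. The 6 libraries held 11272201 to 23003929 reads, with a median of 10472 to 21728 reads an element. Of 1022 elements listed in any library, 1006 were listed in all 12: 1005 of 8 bases and 1 entry called EMPTY, whose content the labels do not give. By sequence, the 8-base elements were the 4 consensus elements, 84 with 1 substitution, 756 with 2, 88 that read the consensus backwards with at most 1 mismatch, and 73 others.

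The elements that carry the result are shown here 5′ to 3′ as DNA, as the deposited tables give them. Capitals mark bases that match the 7 fixed positions of the consensus in place, and lower case marks position 5 and every mismatch. Substitutions are named with the consensus base first, its position (1 is the first base printed), then the base found instead. The first 4 are the consensus. Among elements that passed the test, the next 11 had the largest relative gains after it, the next 6 the largest among those without TGTA, and the last 5 the lowest relative changes.
Consensus, A at position 5: TGTAaATA
Consensus, T at position 5: TGTAtATA
Consensus, C at position 5: TGTAcATA
Consensus, G at position 5: TGTAgATA
A8T, T at position 5: TGTAtATt
A8T, C at position 5: TGTAcATt
A8T, A at position 5: TGTAaATt
T7G and A8G: TGTAcAgg
T7G and A8T: TGTAcAgt
T7G: TGTAtAgA
T7A: TGTAcAaA
A6T: TGTAatTA
A6G: TGTAagTA
G2C and A4G, TGTA from position 3: TcTgtATA
Other, TGTA from position 2: atgtacat
G2A and A8T: TaTAtATt
G2C: TcTAtATA
A4T: TGTttATA
T1A: aGTAtATA
T1A and G2C: acTAcATA
Other, no TGTA: gtacatat
Reversed, 1 mismatch: atTgatgt
G2C and T7G: TcTAtAgA
Other, TG repeat: TGTgtgTg
T1C and A6T: cGTAatTA
A4G and A6G: TGTgcgTA

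At 25 ng, editing rose at every element. The editing level is the percent of recorder adenosines edited, that is, edits over 7 times the reads. Its median over the 8-base elements was 1.73%, 1.93% and 1.81% in the 3 non-induced libraries and 4.27%, 4.57% and 4.20% in the 3 at 25 ng. The groups did not overlap: the mean went from 1.82% ± 0.0991 to 4.35% ± 0.194 (SD, n = 3 each), a 2.38-fold rise. The two-sided exact permutation test of 3 against 3 libraries gave p = 0.10, the smallest it can give (0.10 after adjustment over 4 such tests). Element by element, limma on the log2 odds of editing called 1006 of 1006 elements higher (100%) and 0 lower, at an adjusted p under 0.05. The rise ran from 0.94 to 2.12 on the log2 odds scale, with a median of 1.29. Because the entire library moved, the element results that follow are relative: each library's median log2 odds was subtracted first, and a change of 0 means that an element rose as much as the median element. For the same reason, groups that do not overlap in percent do not by themselves set an element apart from the library.

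**Figure D1:**
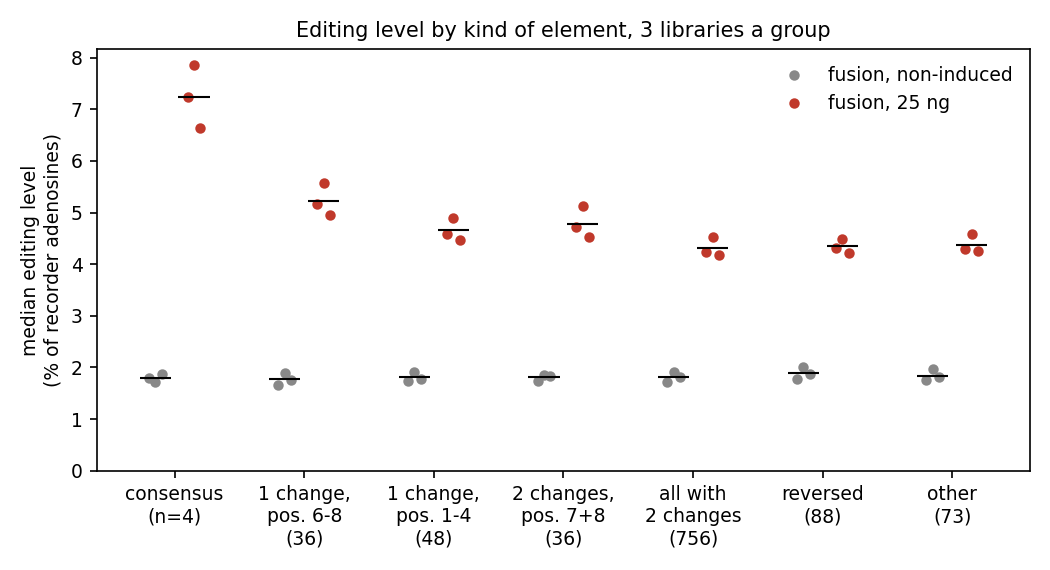
Median editing level (percent of recorder adenosines) for 7 kinds of element, with 1 point a library, 3 libraries a group, and a bar at the mean; the number of elements stands under each kind. The non-induced libraries lie near 1.8% for every kind, while at 25 ng the consensus reached 7.25% ± 0.603 against 4.32% ± 0.186 for elements with 2 substitutions.

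On the relative scale 71 of 1006 elements were called higher (7.06%) and 22 lower (2.19%), the latter including EMPTY. In all 71 the 3 libraries at 25 ng lay above the 3 non-induced ones, and in the 21 lower elements of 8 bases they lay below. Changes among the 71 ran from 0.17 to 0.83, with a median of 0.33. Without induction the 71 stood at a median of 1.76%, against 1.82% over the 8-base elements. That starting level is part of the change and is no separate measure. By sequence, 41 carried TGTA at positions 1 to 4, where the consensus has it, 13 carried TGTA further along, and 17 carried no TGTA.

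The 4 consensus elements were all called higher, with a median relative change of 0.80. TGTAaATA was edited at 1.83%, 1.60% and 1.90% in the non-induced libraries and at 7.22%, 8.0% and 6.69% at 25 ng. Its relative change was 0.83 (SE 0.10, limma adjusted p = 3.51e-05), the largest of the library. Each of its libraries at 25 ng lay above 6% and each non-induced one at or below 1.90%, with no overlap.

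TGTAtATA went from 2.0%, 1.63% and 1.79% to 7.53%, 7.71% and 6.61% (relative change 0.80, SE 0.12, adjusted p = 0.000424 by limma). TGTAcATA went from 1.74%, 2.02% and 1.87% to 7.25%, 8.39% and 7.01% (0.80, SE 0.08, adjusted p = 7.88e-06 by limma). The fourth, TGTAgATA, went from 1.56%, 1.80% and 1.88% to 6.09%, 6.30% and 5.92% (0.58, SE 0.06, adjusted p = 1.2e-05 by limma). All 3 of its libraries at 25 ng lay below every library of the other consensus elements at that amount, while without induction the 4 elements overlapped. The difference between the 4 was not tested.

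To place the consensus against elements without any TGT in the same library, the difference of their median log2 odds was taken. It was 0.06, -0.16 and 0.06 without induction and 0.82, 0.86 and 0.72 at 25 ng, a gap of 0.82 between the group means (exact permutation p = 0.10, the smallest possible). Thus no preference above the spread of the libraries was seen before induction, and each library at 25 ng showed one. The same quantity computed from the share of edited reads rose by 0.52.

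Elements with 1 substitution were more often called when it lay at the 3′ end of the consensus than when it lay in TGTA, a difference that was not itself tested. Of the 36 elements with 1 substitution at position 6, 7 or 8, 24 were called higher and 0 lower, with a median relative change of 0.32. Of the 48 with 1 substitution at positions 1 to 4, 11 were called higher and 0 lower, with a median of 0.13, against -0.00 over all elements tested. The shares called over all elements were 7.06% higher and 2.19% lower. Their median editing levels were 5.16%, 5.58% and 4.96% for the 3′ changes and 4.58%, 4.90% and 4.47% for the changes in TGTA in the 3 libraries at 25 ng. The 3′ set was the higher one in each library. Without induction the 2 sets stood at 1.77% ± 0.115 and 1.81% ± 0.0920 (SD, n = 3). There the 3′ set was the lower one in each library, at 1.66%, 1.89% and 1.76% against 1.73%, 1.91% and 1.78%. That starting level is part of the relative change.

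**Figure D2:**
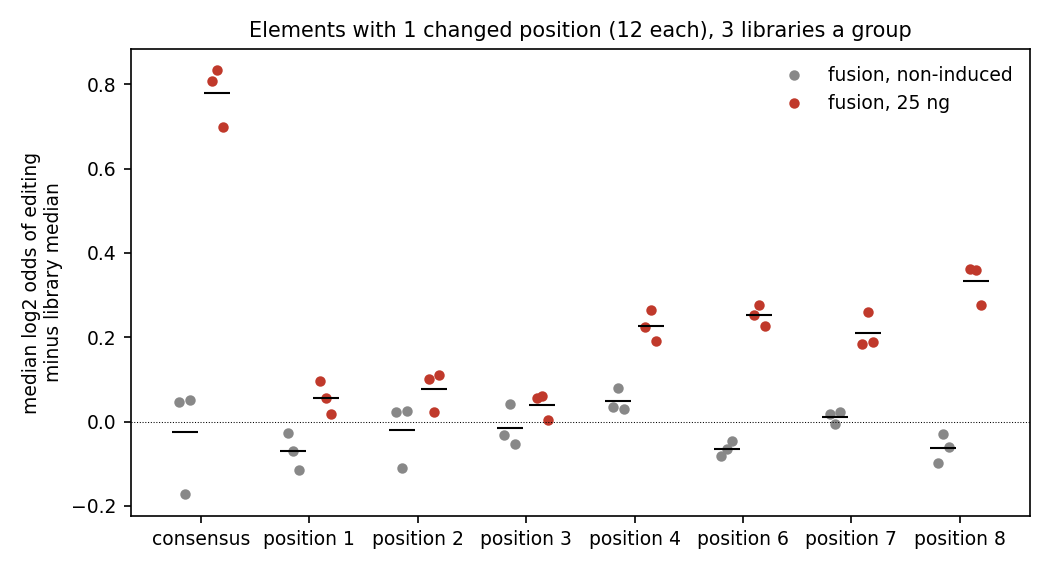
Median log2 odds of editing minus the library median, for the consensus and for the 12 elements with 1 substitution at each position; points are libraries, 3 a group, and bars are means. Among the substituted positions the means lie furthest apart at position 8 and closest at position 3, and the groups overlap at positions 2 and 3.

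By position, the most calls came at position 8, the last base of the element. There 10 of 12 substituted elements were called higher, with a median change of 0.35, against 7 of 12 at position 7 (0.27) and 7 of 12 at position 6 (0.29). In TGTA, position 4 gave 6 of 12 (0.23), position 2 gave 2 of 12 (0.19), position 1 gave 2 of 12 (0.12) and position 3 gave 1 of 12 (0.04). These are medians over 12 elements that share a position, and the differences between positions were not tested.

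Counts also went with the base put in, with 4 elements for each substitution. At position 8, T was called higher in 4 of 4 elements (median 0.60), G in 4 of 4 (0.37) and C in 2 of 4 (0.27). TGTAtATt, the largest change outside the consensus, went from 1.32%, 1.88% and 1.77% to 6.45%, 6.09% and 6.06% (relative change 0.70, SE 0.09, limma adjusted p = 9.17e-05). TGTAcATt went from 1.5%, 1.90% and 1.69% to 6.02%, 6.73% and 5.93% (0.66, SE 0.08, adjusted p = 3.61e-05 by limma). At 25 ng both overlapped the G form of the consensus in level, and neither overlapped its own non-induced libraries. TGTAaATt stood at 1.71%, 1.75% and 1.73% before and at 5.83%, 6.07% and 6.0% after (0.55).

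At position 7, T7A was called higher in 3 of 4 elements (median 0.40) and T7G in 3 of 4 (0.33), while T7C passed in 1 of 4 (0.06). TGTAcAaA went from 1.51%, 1.91% and 1.76% to 5.96%, 6.20% and 5.72% (0.56), and TGTAtAgA from 1.66%, 1.98% and 1.90% to 6.01%, 6.45% and 5.69% (0.48). Both pairs of groups were separate. At position 6, A6G passed in 3 of 4 (0.40), A6T in 3 of 4 (0.29) and A6C in 1 of 4 (0.23). TGTAatTA went from 1.57%, 1.67% and 1.71% to 5.70%, 6.19% and 5.35% (0.57, SE 0.05). TGTAagTA, with 1.61%, 2.09% and 1.55% before and 5.40%, 6.45% and 5.27% after, changed by 0.48 (SE 0.08) and had the wider spread of the pair.

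Within TGTA, position 4 gave the most calls: A4G was called higher in 3 of 4 elements (median 0.26), A4T in 2 of 4 (0.23) and A4C in 1 of 4 (0.14). TGTttATA went from 1.62%, 2.14% and 1.69% to 5.42%, 5.98% and 5.24% (relative change 0.38, SE 0.07, limma adjusted p = 0.00225). TGTgtATA, whose TGTA starts at position 3 after A4G, went from 1.76%, 2.15% and 1.89% to 5.32%, 5.98% and 5.27% (0.28, SE 0.06). In both elements all libraries at 25 ng lay above 5% and none without induction above 2.15%. At position 1, T1A passed in 2 of 4 (median 0.22), and T1C and T1G in 0 of 4 each (0.15 and 0.09). aGTAtATA went from 1.68%, 1.61% and 1.66% to 4.96%, 5.12% and 5.02% (0.37, SE 0.08, limma adjusted p = 0.00562). At position 3, T3G had the only negative median of the 21 substitutions (-0.06), with 0 of 4 called in either direction.

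At position 2, with G2C, 1 of 4 elements was called: TcTAtATA went from 1.57%, 1.38% and 1.66% to 4.66%, 5.30% and 4.69%, a relative change of 0.43 (SE 0.08, limma adjusted p = 0.00273). Its forms with A, C or G at position 5 changed by -0.03, 0.03 and -0.08 and did not pass. G2A gave even changes of 0.20 to 0.27 with 1 of 4 called, and G2T a median of 0.13 with 0 called. The difference between the forms of position 5 was not tested.

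Position 5, where the consensus takes any base, could be compared in 37 contexts that carried TGTA at positions 1 to 4 and were present with all 4 bases. The G form had the lowest change of the 4 bases in 29 of the 37 contexts and the highest in 0. Median changes were 0.11 for A, 0.17 for C, 0.16 for T and -0.05 for G. Of the 37 elements for each base, 12, 12, 13 and 4 were called higher, in that order. Among the G forms 1 was called lower, and among the other forms 0. Over all elements tested the shares were 7.06% higher and 2.19% lower. Relative to the library median, the G forms stood at -0.01, -0.02 and 0.02 without induction and at -0.00, -0.02 and -0.01 at 25 ng. The T forms stood at -0.03, -0.01 and 0.03 and then at 0.15, 0.22 and 0.11. The T forms moved up in each library and the G forms stayed among their non-induced values. The contexts overlap in sequence and are no replicates, so this is a description without a test.

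Few elements with 2 substitutions stood out from the library. Of 756 elements with 2 substitutions, 27 were called higher and 14 lower, with a median relative change of -0.01. Where both substitutions lay at positions 6 to 8, 13 of 108 were higher and 1 lower (median 0.04). With 1 on each side of position 5, 7 of 432 were higher and 13 lower (-0.02), and with both in TGTA 7 of 216 were higher and 0 lower (0.00). Among these 2 sets, 24 elements still hold a TGTA that starts at position 2 to 5, and 9 of them were higher and 0 lower. Of the 624 without any TGTA, 5 were higher and 13 lower. Over all elements tested the shares were 7.06% higher and 2.19% lower. Positions 7 and 8 together gave the most calls of the 21 pairs, with 10 of 36 called higher and a median of 0.16; positions 6 and 8 gave 3 of 36, and positions 6 and 7 gave 0 of 36. The pair at 7 and 8 keeps the TGTA and the A at position 6.

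**Figure D3:**
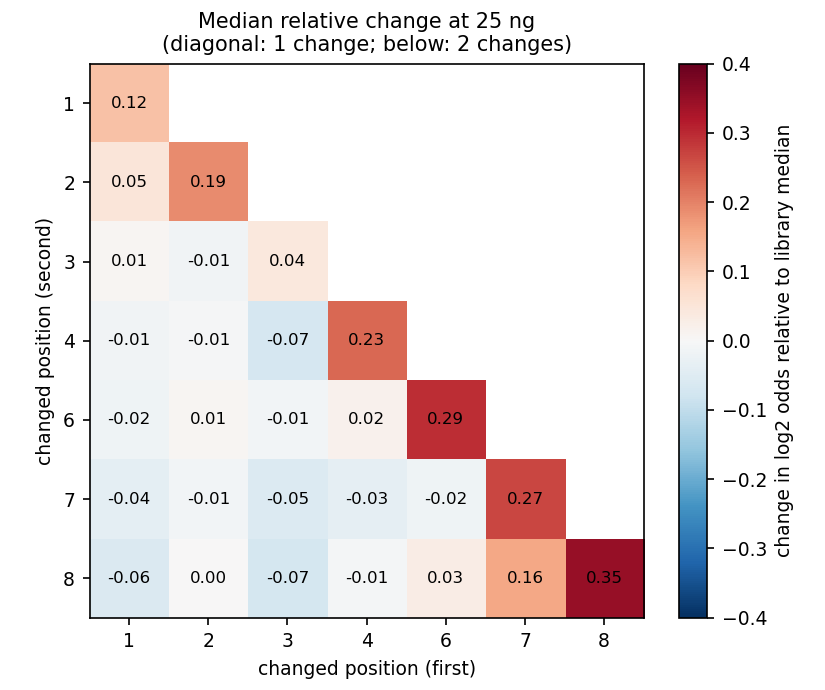
Median relative change at 25 ng (log2 odds, relative to the library median) for elements with 1 substitution (diagonal, 12 elements a cell) and with 2 (below it, 36 elements a cell), by substituted positions. Outside the diagonal the cell for positions 7 and 8 is the highest, at 0.16, and the lowest stand at -0.07.

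Among the elements changed at 7 and 8, those that closed with GT or AT passed in 3 of 4 each, with medians of 0.39 and 0.30, those with CT or GG in 2 of 4 each, and those with AC, AG, CC, CG or GC in 0. TGTAcAgg was the strongest element with 2 substitutions. It went from 1.48%, 1.82% and 1.60% to 5.93%, 6.06% and 5.94% (relative change 0.65, SE 0.06, limma adjusted p = 7.88e-06), with a mean of 5.98% ± 0.0738 (SD, n = 3) at 25 ng, and the groups were far apart. It was the 1 element of this pair that changed more than both of its single-substitution forms, TGTAcAgA at 0.44 and TGTAcATg at 0.31. TGTAcAgt went from 1.66%, 2.04% and 1.84% to 6.09%, 6.62% and 5.86% (0.52, SE 0.06), also with no overlap.

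If 2 substitutions lowered the response additively from the matching consensus element, the median change would be -0.33. The median observed was -0.01, and 707 of 756 elements lay above their own sum. The sum goes below 0, a level that marks the median element and not the absence of editing. Elements without TGT had a median relative change of -0.02, and the lowest change of any element with 2 substitutions was -0.30. The median sum lay below that, so most elements could hardly fall under their sum. Counts above the sum therefore do not decide whether substitutions add. For positions 7 and 8 the observed median of 0.16 stood against a sum of -0.09, with 33 of 36 above it.

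The core could also be shifted. Of 32 elements with TGTA starting at position 2, 3, 4 or 5, 13 were called higher and 0 lower, with a median of 0.19. The shares over all elements tested were 7.06% higher and 2.19% lower. TcTgtATA, with 1.59%, 1.88% and 1.68% before and 5.44%, 6.10% and 5.41% after, changed by 0.49 (SE 0.06, limma adjusted p = 8.63e-05), and so more than the single substitutions at positions 1 to 4. In atgtacat, whose TGTA starts at position 2, editing went from 1.65%, 1.97% and 1.82% to 5.39%, 6.52% and 5.57% (0.45, SE 0.06, limma adjusted p = 0.00019). Each had its 25 ng libraries apart from the others. A TGTA from position 3 by itself fixes A4G and T at position 5 in all 13 such elements. All 6 elements called among the 13 closed with TGTATA, a grouping made after their values were seen. They were TGTgtATA, TcTgtATA, TtTgtATA, TaTgtATA, aGTgtATA and gGTgtATA, with changes of 0.17 to 0.49. cGTgtATA, which closes the same way, changed by 0.12 and was not called. In elements with a shifted core the site would run on into recorder sequence that was not analysed here.

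Elements without TGTA were called higher less often than the library as a whole, where 7.06% were higher and 2.19% lower. With TGT but not TGTA, 5 of 168 were higher and 5 lower. With neither, 12 of 652 were higher and 15 lower. Of the 17 elements called higher without TGTA, 10 had 1 substitution, 5 had 2, and 2 were of other sequence. The ending ATA was present in 12 of the 17, and in 260 of all the tested elements without TGTA. Those tested elements are 168 with TGT and 652 with neither. The 10 called elements with 1 substitution close with ATA by construction, since a single substitution that removes TGTA leaves the ending unchanged. The count of 12 thus mostly restates how many had 1 substitution, and it does not show a separate part for the ending. TaTAtATt went from 1.42%, 1.64% and 1.66% to 4.68%, 5.31% and 5.22% (relative change 0.45, SE 0.13, limma adjusted p = 0.0411). Its groups did not overlap, but leaving out any 1 of the 6 libraries, or modelling counts as quasi-binomial, ended the call (adjusted p 0.000225 to 0.178 over the settings tried). It had 3457 to 11022 reads a library, and its change in the share of edited reads was 0.51 (limma adjusted p = 0.000237).

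Further members of the set shown without TGTA were acTAcATA and gtacatat. acTAcATA went from 1.44%, 1.65% and 1.64% to 4.41%, 5.04% and 4.30% (0.29, SE 0.06). gtacatat went from 1.54%, 1.57% and 1.63% to 4.51%, 5.14% and 4.81% (0.36, SE 0.09). In both, the lowest library at 25 ng lay above 4%, but so did the library medians, at 4.27%, 4.57% and 4.20%. Without induction both elements lay below the library medians of 1.73%, 1.93% and 1.81%, and that starting level is part of the change. The call for gtacatat was lost without non-induced replicate 2, 25 ng replicate 2 or 25 ng replicate 3 (adjusted p up to 0.0726). A quasi-binomial model ended it too, and those of acTAcATA (up to 0.0773) and aGTAtATA (up to 0.0512). Against ADARcdMUT, with the same 25 ng libraries, the relative changes of TaTAtATt, TcTAtATA, TGTttATA, aGTAtATA, gtacatat and acTAcATA were 0.52, 0.18, 0.34, 0.12, 0.22 and 0.08. Of these only TaTAtATt and TGTttATA passed there (limma adjusted p = 0.0149 and 0.005). The consensus elements changed by 0.52 to 1.08 in that comparison.

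The elements called lower rose in editing too, but by less than the median element. atTgatgt, a reversed form, went from 2.23%, 2.73% and 2.29% to 4.59%, 4.65% and 4.36%, a relative change of -0.35 (SE 0.07, limma adjusted p = 0.00323). TcTAtAgA went from 1.95%, 2.36% and 2.19% to 4.39%, 4.11% and 4.13% (-0.30), and TGTgtgTg from 2.34%, 2.54% and 2.28% to 4.62%, 4.82% and 4.55% (-0.29). On the relative scale the groups of each were apart. cGTAatTA, at 1.72%, 2.13% and 1.82% and then 3.99%, 3.63% and 3.73%, changed by -0.26. TGTgcgTA, at 2.0%, 2.37% and 2.22% and then 4.41%, 4.62% and 4.36%, changed by -0.23.

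Of the 21 such elements, 14 had 2 substitutions (of 756 tested), 4 were reversed (of 88) and 3 were others (of 73). The share called lower over all elements tested was 2.19%. Of the reversed elements 0 of 88 were called higher, against 7.06% of all elements tested, with a median change of -0.06. By a grouping made after the values were seen, 3 of the 4 elements with G2C and T7G were among the lower ones, and 7 of the 21 closed with AGA, as do 52 of the elements tested. All 21 stood above the median of 1.82% without induction, at 1.89% to 2.42%, and reached 3.78% to 4.72% at 25 ng. That starting level is part of the change itself and is no separate measure. The count rests on few libraries: it fell from 22 to 4, 3 and 6 without replicate 1, 2 or 3 of 25 ng, and to 9 without replicate 1 or replicate 3 of the non-induced group. TGTgcgTA lost its call without any of these 3 libraries of 25 ng or without non-induced replicate 2 or 3 (adjusted p 0.0126 to 0.129 over the settings), cGTAatTA without non-induced replicate 2 or 25 ng replicate 2 or 3 (up to 0.160), and TcTAtAgA without 25 ng replicate 2 (up to 0.0691). A quasi-binomial model also ended the calls of these 3 elements.

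EMPTY was edited at 1.89%, 2.10% and 2.04% without induction and at 4.19%, 4.47% and 4.21% at 25 ng. Its relative change of -0.16 (SE 0.05, limma adjusted p = 0.0457) lost its call whichever of the 6 libraries was left out. It had 283777 to 571470 reads a library, more than any 8-base element shown.

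The rise in editing can be split into reads that carry any edit and edits on each edited read. The median share of edited reads was 6.94%, 7.12% and 6.90% without induction and 13.9%, 13.9% and 13.7% at 25 ng, a 1.98-fold rise (exact permutation p = 0.10). Edits per edited read went from 1.74, 1.90 and 1.84 to 2.15, 2.31 and 2.15, a 1.20-fold rise (exact permutation p = 0.10). Neither pair of groups overlapped, and by limma 1004 of 1006 elements rose in edits per edited read (99.8%) and 0 fell. For the median element the log2 ratio of 1.25 was made up of 0.98 from the share and 0.27 from edits per edited read, or about 78% and 22%. For the consensus the log2 ratio was 2.01, with 1.43 from the share and 0.56 from edits per edited read, about 72% and 28%. These consensus values do not add up exactly.

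Edits were gathered on fewer reads than independent editing of the 7 adenosines would give. At the editing levels of 25 ng, independence would put an edit on 26.7% of reads with 1.14 edits on each, against 13.8% and 2.20 measured. The same gap was there without induction, at 12.1% and 1.06 against 6.99% and 1.83. For TGTAaATA at 25 ng, 18.0% ± 0.391 of reads were edited against 41.1% under independence.

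Relative to the library median, the share of edited reads was called higher in 56 elements (5.57%) and lower in 12 (1.19%), and edits per edited read higher in 27 (2.68%) and lower in 2 (0.199%). Of the 71 elements with higher editing, 49 were also higher in share and 27 in edits per edited read, 20 in both, and 15 passed in neither part. TGTAaATA had 1.85, 1.79 and 1.90 edits per edited read without induction and 2.75, 3.09 and 2.66 at 25 ng, a relative change of 0.35 (limma adjusted p = 0.000403). TGTAcATA, at 1.81, 1.97 and 2.10 and then 2.82, 3.08 and 2.78, changed by 0.29, as did TGTAtATA, at 1.84, 1.95 and 1.84 and then 2.78, 2.80 and 2.71. These were the largest changes of this measure, and in each the groups were far apart.

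In both elements called lower in edits per edited read, TtTgcATA (G2T and A4G, change -0.14) and atggatgt (reversed, -0.14), an edited read still gained edits at 25 ng. Leaving out non-induced replicate 1 or 2 or any replicate of 25 ng took this count to 0. The 27 higher fell to 16 without non-induced replicate 1 and to 17, 14 and 10 without replicates 1, 2 and 3 of 25 ng. For the share, the 56 fell to 32 and 36 without replicates 1 and 2 of 25 ng, and the 12 to 6 without non-induced replicate 1 and to 3, 3 and 2 without replicates 1, 2 and 3 of 25 ng.

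**Figure D4:**
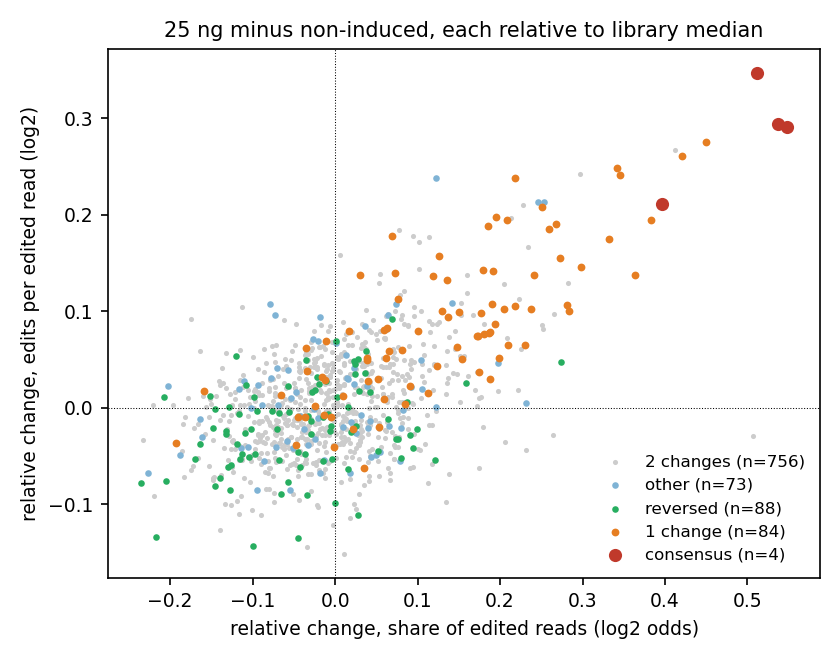
Relative change at 25 ng in the share of edited reads (horizontal, log2 odds) and in edits per edited read (vertical, log2), with 1 point for each 8-base element, coloured by kind. The 4 consensus elements lie at the upper right, at 0.40 to 0.55 and 0.21 to 0.35, and the elements with 1 substitution reach from the centre toward them.

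The abundance of an element's RNA among the amplicons was compared as well. edgeR's quasi-likelihood test on reads per element called 0 of 1006 elements (0%), and DESeq2 also called 0. Before adjustment 1 element passed 0.05 in edgeR and 7 did in DESeq2. Both counts are far below a share of 0.05 of the elements, so these tests were conservative here. For the consensus elements the log2 changes in reads were -0.01, -0.01, 0.02 and -0.05, in the order TGTAaATA, TGTAtATA, TGTAcATA and TGTAgATA. TGTAaATA made up 0.132%, 0.122% and 0.131% of the reads without induction and 0.130%, 0.126% and 0.127% at 25 ng, and the groups overlapped. Replicates at 25 ng varied more in reads, with a median SD of 0.0839 in log2 read share against 0.0371 without induction, and without 25 ng replicate 2 the elements at an unadjusted p under 0.05 numbered 126. A change smaller than this spread was not detectable.

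At 250 ng the consensus elements reached 13.2% ± 0.328, 13.9% ± 0.360, 13.4% ± 0.379 and 11.5% ± 0.195 (SD, n = 3) in the same order, again lowest with G. The relative changes against the same non-induced libraries stood at medians of 0.80 at 25 ng and 0.85 at 250 ng for the consensus, 0.32 and 0.37 for 1 substitution at positions 6 to 8, 0.13 and 0.17 for 1 in TGTA, and 0.16 and 0.17 for positions 7 and 8 together. Both comparisons share these controls. Tested directly between 250 ng and 25 ng relative to the library median, 0 of 1006 elements were called (0%, limma). On an arcsine square root scale 35 were higher. With log2 odds, 4 elements had an unadjusted p under 0.05, far below the share of 0.05 that no difference would give. The test was thus conservative, and 0 calls do not show that the amounts agree. The lowest adjusted p was 0.998, for cccccccc and TGcgaATA. The size of a difference this could miss is set by the error of an element's change, with a median SE of 0.07 on the log2 odds scale.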

How the data were processed

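Per the labels' protocols, the libraries are PCR amplicons of the recorder mRNA's 3′ UTR, from element to hairpin. For each element the authors deposited counts of reads, of edited reads and of edits, the percent of edited adenosines, each element's percent of reads and a score. The deposited percent edited and score could be recomputed from the counts within 1e-09, and the counts were used. The aligner and edit caller, with their settings, are likewise not given in the sources used here. Each table lists elements with over 1000 reads, and 16 elements not listed in all 12 were left out. No molecular identifiers are mentioned, so reads may be PCR copies. Chi-squared over its degrees of freedom between replicates' reads was 6.24 to 202, above sampling noise, so no library was taken for a copy of another.

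Groups and replicate numbers were taken from titles. The value tested was log2((edits + 0.5)/(7 × reads − edits + 0.5)), with limma 3.58.1 (lmFit, eBayes with trend) in R 4.3.3, in 1 fit of 12 libraries in 4 groups, Benjamini-Hochberg over 1006 elements and calls under 0.05. Share of edited reads was handled alike, and edits per edited read as log2. Reads were tested with edgeR 4.0.16 (quasi-likelihood, TMM), with DESeq2 1.42.0 as an alternative. The scripts were tested on simulated data. Deviations of same-numbered libraries, taken after each library's median was subtracted, correlated at -0.08 to -0.01. The main fits therefore had no replicate block. A shift shared by whole libraries of 1 number is removed before this check, so it cannot show that numbers do not pair libraries. Replicate 2 had the highest median editing in both groups, at 1.93% and 4.57%.

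Named were the 4 consensus elements and EMPTY, the 12 largest relative gains called with separate groups, the 6 largest without TGTA, the 4 largest among single substitutions at positions 1 to 4, the 5 lowest, for the other measures the 3 largest each way, and for 250 ng against 25 ng the 2 lowest adjusted p. Members and lists were chosen with earlier results of these data known. Alternatives were other pseudocounts, scales, models, centring, read minimum and sample sets.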

Additional observations from a re-analysis of the deposited data

How the results depend on the processing

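The 22 elements lower in editing became 14 with an arcsine square root scale, 9 with a quasi-binomial model and 11 with a replicate block, and 3 to 17 when 1 library at a time was left out. The 12 lower in the share of edited reads became 5 on the arcsine scale and 2 to 14 with a library left out, and the 56 higher became 32 to 47. For edits per edited read, the 27 higher became 17 when edits beyond the first were counted and 10 to 25 with a library left out. The 2 lower became 0 with edits beyond the first, 1 with only the 2 groups in the fit, 0 with the replicate block and 0 to 2 with a library left out. Between 250 ng and 25 ng, 35 elements were higher on the arcsine scale against 0. The preference for the consensus went from 0.82 to 0.52 when taken from the share of edited reads. The cause of these moves was not tested.

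The 71 elements higher in editing numbered 50 to 93 over the settings tried, and 68 with the replicate block, which moved no count by over 1.5 times apart from both named above. No result reversed. The replicate block also ended the calls of cGTAatTA, atggatgt and EMPTY in relative editing. Of 32 named elements, 29 were called in relative editing, and 20 of these in every one of the 15 settings that gave a value. Calls in edits per edited read and in reads are not part of these counts. A minimum of 5000 reads left no value for TaTAtATt, TGTAtATA, gtacatat, acTAcATA and TGcgaATA. With 3 libraries a group, a median SE of 0.07 (log2 odds) limits what could be called.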
